A study of Mus musculus with 15 samples.

Results

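Matrix metalloproteinases (MMPs) and their tissue inhibitors (TIMPs) were followed in mouse fibroblasts from 5 sources. The members are 10 genes of the 33644 gene names on the array, of which 7 encode proteases (Mmp2, Mmp3, Mmp9, Mmp10, Mmp11, Mmp13 and Mmp14) and 3 encode inhibitors (Timp1, Timp2 and Timp3). Every array probe whose gene name or bracketed symbol in its description was that of a member was taken, which gave 14 of the 41174 probes. Of the genes, 7 had 1 probe, Mmp9 and Mmp14 had 2 each and Timp1 had 3. All 14 probes passed the filter on dim signals, as did 38520 of all probes.

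The resistant sources, per the labels, were TAF-el4, TAF-tib42 and TAF-tib48, and the sensitive ones were TAF-tib6 and NSF. The series concerns fibroblasts of tumours that do not respond to treatment against VEGF, the main growth factor of blood vessels, so TAF is read here as tumour-associated fibroblast. EL4 names a T-cell lymphoma line of the mouse. What NSF and the tib numbers stand for, and the strain, age, culture and passage of the cells, are not given in the sources used here. Each source was put on 3 arrays, 15 in all, with the fibroblast RNA in Cy5 and a commercial pool of mouse RNA (Stratagene Universal Mouse Reference RNA) in Cy3. The labels do not say whether a source's 3 arrays are 3 cultures or 1, so a p-value between sources reflects array-to-array spread that could be technical alone.

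MMPs are zinc-dependent endopeptidases that cut collagens, proteoglycans and growth factor carriers of the extracellular matrix. Most are secreted as inactive proenzymes and are opened by other proteases, while Mmp14 stays anchored in the cell membrane and, in a complex with Timp2, activates the proenzyme of Mmp2. TIMPs block the active site of these enzymes, and fibroblasts are a main source of both in the tumour stroma.

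Promoter motifs divide the 8 members with a RefSeq promoter entry into 2 kinds, and sequence is shown for 3 genes of each kind. Mmp3, Mmp10 and Mmp13 lie in the MMP cluster of chromosome 9, where the RefSeq table orders Mmp13, Mmp12, Mmp1b, Mmp3, Mmp1a, Mmp10 and Mmp8 beside each other. The lines below give the 100 bases before the annotated start of the RNA, from RefSeq (GRCm38.p6), read 5′ to 3′ on the strand of the gene. Capitals mark matches to the AP-1 motif TGANTCA, the TATA motif TATAAA or the GC box GGGCGG, each searched on both strands.
Mmp3, chr9:7445722-7445821, plus strand: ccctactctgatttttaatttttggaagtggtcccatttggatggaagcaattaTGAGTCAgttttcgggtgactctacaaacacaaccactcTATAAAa
Mmp10, chr9:7502242-7502341, plus strand: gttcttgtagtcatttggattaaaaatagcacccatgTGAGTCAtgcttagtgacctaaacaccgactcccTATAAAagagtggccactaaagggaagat
Mmp13, chr9:7272414-7272513, plus strand: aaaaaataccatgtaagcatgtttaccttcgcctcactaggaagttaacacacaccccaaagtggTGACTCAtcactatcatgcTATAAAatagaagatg
Mmp11, chr10:75932503-75932602, minus strand: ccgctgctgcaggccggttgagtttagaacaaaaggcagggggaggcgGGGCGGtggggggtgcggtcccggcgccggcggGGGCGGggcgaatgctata
Timp1, chrX:20870066-20870165, plus strand: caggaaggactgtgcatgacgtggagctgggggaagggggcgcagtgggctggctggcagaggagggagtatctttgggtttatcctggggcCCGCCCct
Timp3, chr10:86300312-86300411, plus strand: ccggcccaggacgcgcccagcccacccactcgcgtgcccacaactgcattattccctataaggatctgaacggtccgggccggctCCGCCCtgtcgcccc

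Of the 8 members with an entry in the RefSeq promoter table (Mmp2 and Mmp9 are only named here), 3 held the AP-1 motif, against 2.73% of 32851 promoters of the same length. These 3 were Mmp3, Mmp10 and Mmp13, and the same 3 genes held the TATA motif, which 5.56% of all promoters hold. The GC box was in the other 5, Mmp11, Mmp14, Timp1, Timp2 and Timp3, against 24.7% of all promoters. Counted from the start, with -1 as the base before it, the AP-1 match began at -46 in Mmp3, at -63 in Mmp10 and at -35 in Mmp13. A match describes the letters of this window and does not show that a factor binds there.

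The probes of Mmp3, Mmp9, Mmp10 and Mmp13 did not stand far over background. The Cy5 signal of Mmp13 was 96.35 to 140.9 units over the 15 arrays, between 1.32 and 2.06 times the 95th percentile of 314 negative control spots of the same array. Mmp3 gave 103.3 to 316.1 units and Mmp10 188.4 to 344.4 units. The Mmp9 probes were near the median probe of an array, which had 174.7 to 285.9 units. By the mean intensity of both dyes, the Cy3 reference included, 12 of the 14 member probes were brighter than the median of the probes tested. At the other end, the brighter Mmp14 probe gave 18540 to 33100 units, Timp2 gave 14040 to 48020, Timp3 gave 8623 to 40770 and the brightest Timp1 probe gave 22720 to 65290. That Timp1 probe reached the limit of the scanner on all 3 TAF-el4 arrays, so its TAF-el4 value is a lower bound. Signal also depends on the probe, so these ranges tell how far each probe stood over background and do not rank the genes.

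**Figure D1:**
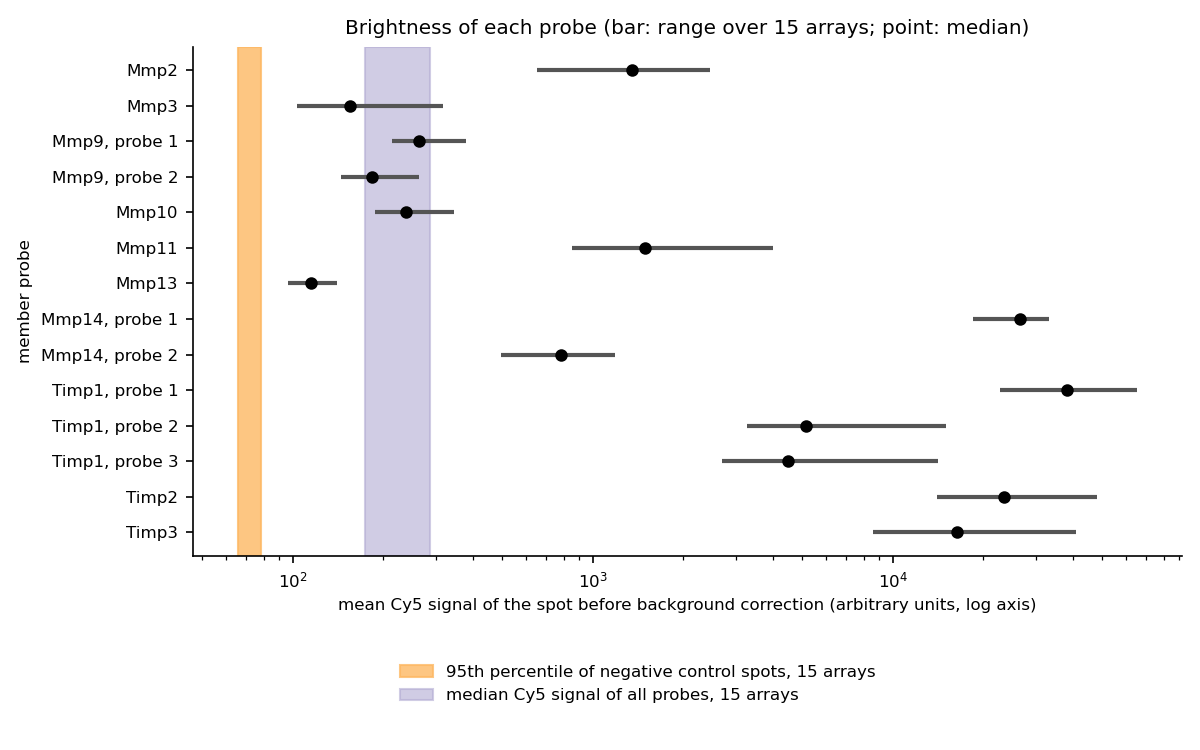
Cy5 signal of the 14 member probes before background correction, in arbitrary units on a log axis. Bars span the 15 arrays and points are medians. The orange band is the 95th percentile of negative control spots and the violet band the median of all probes, each over the 15 arrays. Mmp13 lies just above the negative controls, and Mmp14 probe 1, Timp1 probe 1 and Timp2 are at 14040 units or more on every array.

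Of 11 fibroblast markers, 11 were above the negative control level on all arrays, with a summed normalised Cy5 level of 237400 to 319600 units. Col1a1, Col1a2 and Vim averaged 65285.1 to 65299.8 raw units per source, at the limit of the scanner. The sum is therefore limited by saturation. Markers of other cell types were mixed: 4 of 8 for macrophages, 1 of 6 for neutrophils, 1 of 7 for T lymphocytes, 2 of 6 for endothelium and 4 of 6 for epithelium were brighter than the median probe on every array. So were 3 of 6 for pericytes and smooth muscle and 0 of 3 for melanocytes. Acta2, of the pericyte and smooth muscle list, had mean raw signals per source of 58129.2 to 65290.3 units. Ptprc, Cdh1 and Tie1 were dim, with mean raw signals per source of 93.1 to 102.1, 83.7 to 102.7 and 84.0 to 94.3 units. Cd3e (1954.8 to 2687.4), Krt5 (912.1 to 1236.3), Csf1r (513.9 to 815.1) and Krt18 (664.5 to 1033.6) were not. Over probes, the log2 ratios of same-source arrays had correlations of 0.9597 to 0.9872, and arrays from different sources had 0.8411 to 0.9486. The slide numbers form 3 runs of consecutive slides, with TAF-el4 and NSF in the first, TAF-el4, TAF-tib42 and TAF-tib48 in the second and TAF-tib48 and TAF-tib6 in the third. Each pair of sources was therefore also compared with the slide run as a block, and the value is given where it changes a call described here. In RNA from a population of cells, fewer cells of a type and less RNA per cell cannot be told apart.

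Levels are given as log2 ratios of the fibroblast RNA to the reference RNA, as mean ± SD over 3 arrays, and differences between sources are log2 differences from limma. A probe was called when its adjusted p (Benjamini-Hochberg, over all 38520 probes) was under 0.05. The labels' 2 classes pose the question whether a gene follows resistance across sources. To answer it, each resistant source was set against each sensitive source, which gives 6 pairs. The pairs share arrays, since all 3 resistant sources are set against the same TAF-tib6 and NSF arrays, so they are not independent of each other.

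Mmp2, the gelatinase that cuts basement membrane collagen, was lower in every resistant source than in either sensitive source. Its log2 ratios were 0.24, 0.10 and 0.22 on the TAF-el4 arrays, 0.57, 0.51 and 0.39 on the TAF-tib42 arrays and -0.56, -0.48 and -0.14 on the TAF-tib48 arrays. They were 0.94, 1.04 and 0.84 on the TAF-tib6 arrays and 0.82, 0.78 and 0.98 on the NSF arrays. All 9 resistant arrays lay below all 6 sensitive ones. The means were 0.19 ± 0.07 in TAF-el4, 0.49 ± 0.09 in TAF-tib42 and -0.39 ± 0.22 in TAF-tib48, against 0.94 ± 0.10 in TAF-tib6 and 0.86 ± 0.11 in NSF. A single probe measured Mmp2, at chromosome 8, 92140060 to 92140119, as the scanner files give it, in a build not named in the sources used here.

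The largest Mmp2 difference was in TAF-tib48, which had 0.398 times the ratio of TAF-tib6 (log2 difference -1.33, SE 0.087, adjusted p = 1.6e-09) and 0.420 times that of NSF (-1.25, adjusted p = 2.5e-09). TAF-el4 differed from TAF-tib6 by -0.75 (adjusted p = 3.7e-06) and from NSF by -0.67 (adjusted p = 1.3e-05). TAF-tib42 differed from TAF-tib6 by -0.45 (adjusted p = 7.7e-04) and from NSF by -0.37 (adjusted p = 0.00382). Mmp2 was thus called lower in 6 of 6 pairs, as were 557 of all 38520 probes (1.45%), while 1.15% were called higher in all 6. No other member probe was called in 1 direction in all 6. Leaving out any array kept these 6 calls.

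Ordered by level, TAF-tib6 and NSF stood highest and were not told apart (adjusted p = 0.638), TAF-tib42 followed, then TAF-el4 and, lowest, TAF-tib48. The Mmp2 step between TAF-el4 and TAF-tib42 (-0.30, adjusted p = 0.0157) missed the threshold without TAF-el4 replicate 2 (-0.26, adjusted p = 0.0781) or without TAF-tib42 replicate 1 (-0.26, adjusted p = 0.0765). It was -0.27 (adjusted p = 0.151) with the slide run as a block. The replicate spread of TAF-tib48, 0.22, was the widest, with 1 array at -0.14.

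With the slide run as a block, Mmp2 stayed lower in all 6 pairs and kept its call in 3. TAF-tib48 differed by -1.24 from TAF-tib6 (adjusted p = 6.4e-08) and by -1.47 from NSF (adjusted p = 3.0e-05), and TAF-el4 by -0.69 from NSF (adjusted p = 5.4e-05). The call was lost for TAF-el4 against TAF-tib6 (-0.47, adjusted p = 0.139), TAF-tib42 against TAF-tib6 (-0.20, adjusted p = 0.489) and TAF-tib42 against NSF (-0.42, adjusted p = 0.105). These pairs share no run, and neither do TAF-tib48 and NSF, whose call was kept. Within the first run TAF-el4 differed from NSF by -0.69 (adjusted p = 1.4e-04), and within the third TAF-tib48 differed from TAF-tib6 by -1.24 (adjusted p = 3.7e-05).

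Taking the source as the unit, Mmp2 averaged 0.10 ± 0.45 in resistant sources (SD, n = 3 sources) and 0.90 ± 0.05 in sensitive sources (SD, n = 2 sources). The difference was -0.80 (SE 0.256) and did not pass (limma, adjusted p = 0.436). Each resistant mean lay below both sensitive means, which held for 3 of the 14 member probes (Mmp2, Mmp10 and the bright Mmp14 probe) and for 12.8% of all probes. None of the 14 had all resistant means above both sensitive means, as 14.3% of all probes did. No member probe was called between resistant and sensitive sources, and of all probes 1 was (0.0026%). An exact permutation test of 3 against 2 sources cannot give a p below 0.1. Between resistant and sensitive sources the other members differed by -0.26 (Timp2) to 0.45 (Timp3). The limma p of Mmp2 before adjustment for the number of probes was 0.0243.

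The summed normalised Cy5 level of 6 endothelial markers was 857.6 to 951.8 units in TAF-el4, 786.7 to 876.3 in TAF-tib42 and 1184 to 1202 in TAF-tib48, against 1495 to 1532 in TAF-tib6 and 1640 to 1695 in NSF. All 6 markers were above the negative control level on every array. The lower sum of the resistant sources was that of Flt1, a VEGF receptor, with means on the same scale of 346.3, 259.3 and 488.2 units in TAF-el4, TAF-tib42 and TAF-tib48, against 928.7 in TAF-tib6 and 1052 in NSF. Without Flt1 the other 5 summed to 529.5 to 602.1 units in TAF-el4, 551.5 to 602.2 in TAF-tib42 and 692.7 to 731.4 in TAF-tib48, against 577 to 582.5 in TAF-tib6 and 587.9 to 640.2 in NSF. The sum without Flt1 was thus not lower in the resistant sources as a group, and it was highest in TAF-tib48. The vascular cadherin Cdh5 averaged 102.8, 97.58 and 169.1 units in the resistant sources, against 92.09 in TAF-tib6 and 108.5 in NSF. The part of endothelial cells in the Mmp2 result was not tested.

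**Figure D2:**
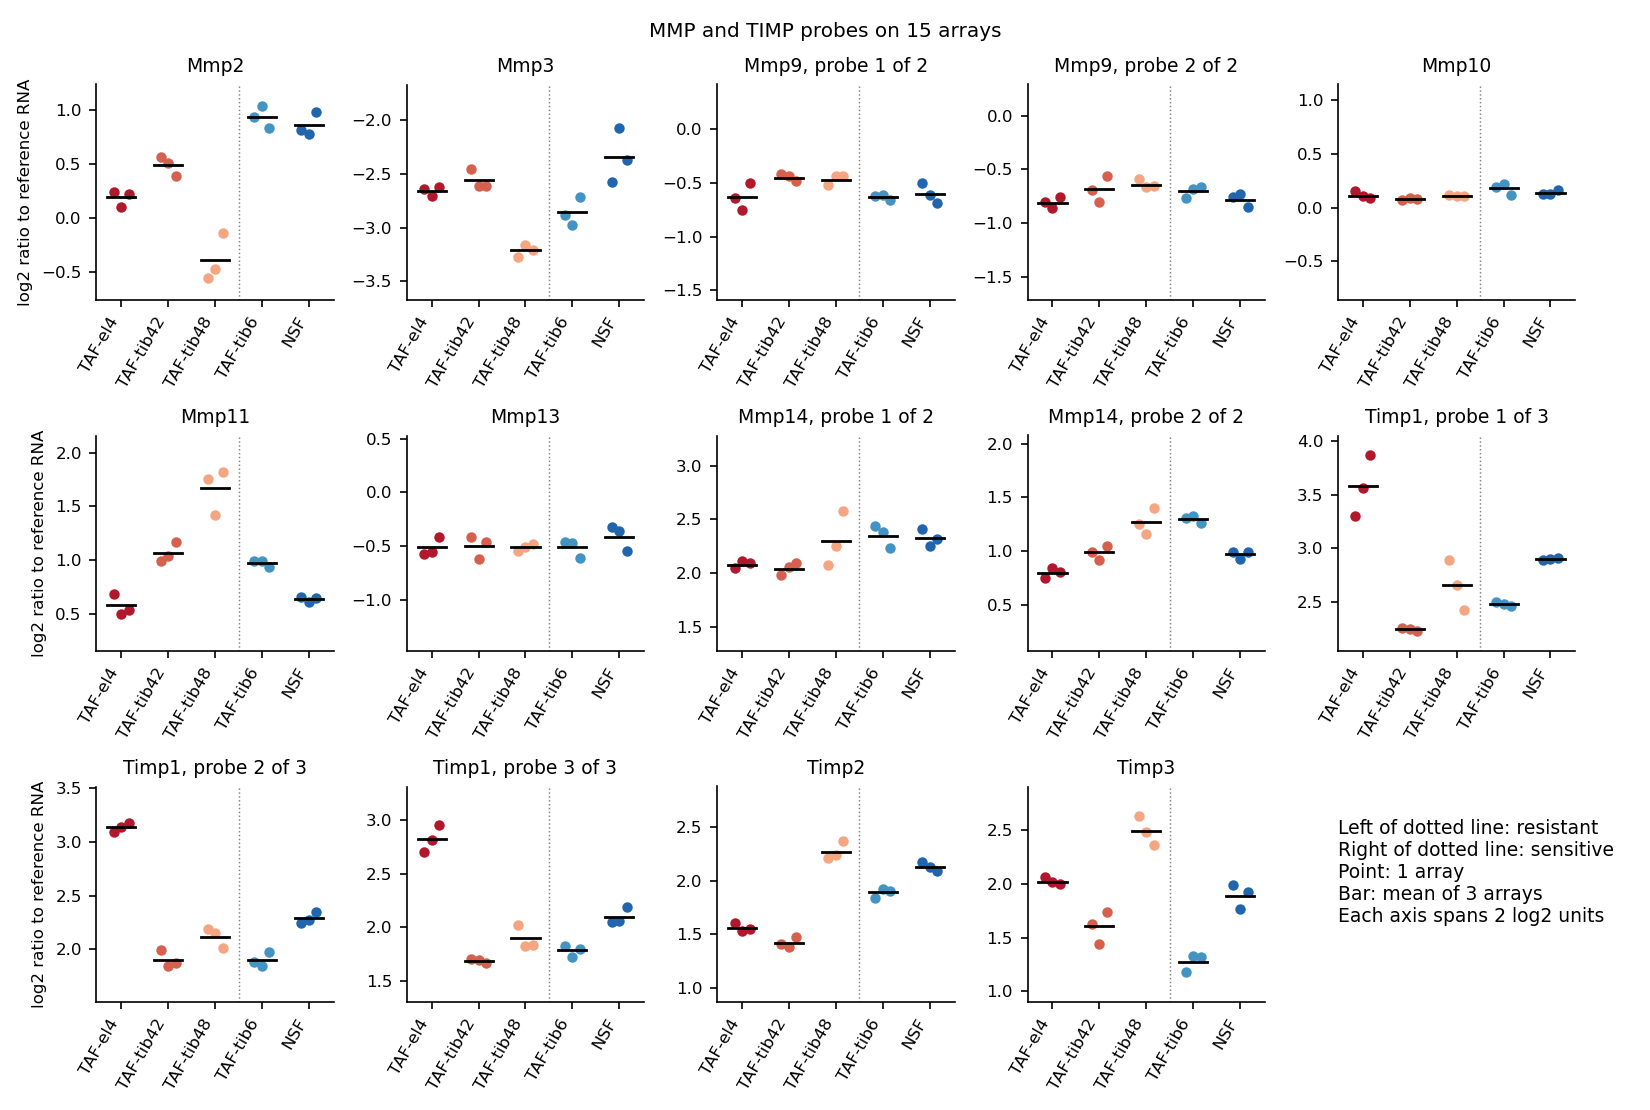
Log2 ratio to the reference RNA of each member probe on the 15 arrays, resistant sources to the left of the dotted line. Points are arrays, bars are means of 3 arrays and each axis spans 2 log2 units. Mmp2 is lower on all 9 resistant arrays, Timp1 is highest in TAF-el4 on its 3 probes, and Mmp11 and Timp3 are highest in TAF-tib48.

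Mmp9, the other gelatinase, varied little. Its brighter probe averaged -0.63 in TAF-el4, -0.45 in TAF-tib42 and -0.47 in TAF-tib48, against -0.63 in TAF-tib6 and -0.60 in NSF. The second probe averaged -0.81, -0.68 and -0.64 in the same resistant sources, against -0.70 in TAF-tib6 and -0.78 in NSF. The brighter probe was called higher in TAF-tib42 than in TAF-tib6 (0.19, adjusted p = 0.0212) and in TAF-tib48 than in TAF-tib6 (0.17, adjusted p = 0.039), and the second probe in neither (0.02 and 0.06). Neither call was firm. That of TAF-tib42 was lost without TAF-tib42 replicate 1 or 2 or TAF-tib6 replicate 3 (0.17 to 0.18) and with the slide run as a block (0.27, adjusted p = 0.0684). That of TAF-tib48 was lost without TAF-tib48 replicate 2 or 3 or any TAF-tib6 array (0.15 to 0.18). The probes correlated at 0.521 over the 15 arrays, which share sources. The source means of the brighter probe spanned 0.19.

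Mmp14, the membrane protease that activates the proenzyme of Mmp2, was measured by a bright and a dimmer probe that correlated at 0.634. The bright probe averaged 2.08 ± 0.03 in TAF-el4, 2.04 ± 0.06 in TAF-tib42 and 2.30 ± 0.25 in TAF-tib48, against 2.35 ± 0.11 in TAF-tib6 and 2.33 ± 0.08 in NSF. TAF-el4 was lower than TAF-tib6 by a log2 difference of -0.26 (adjusted p = 0.0384) and TAF-tib42 by -0.30 (adjusted p = 0.0154), and TAF-tib42 was lower than NSF by -0.29 (adjusted p = 0.0227). Against TAF-tib6 these turned with the slide run as a block, to 0.08 for TAF-el4 and 0.03 for TAF-tib42, and the difference of TAF-tib42 from NSF lost its call (-0.30, adjusted p = 0.214). Scaling the log ratios between arrays left none of the 3 called, at -0.64, -0.58 and -0.11 in the same order, and neither did the scanner's log ratio or Cy5 alone. Each of the 3 calls was also lost without some single array. That of TAF-el4 was lost without any TAF-el4 array or TAF-tib6 replicate 1 or 2 (-0.28 to -0.22), that of TAF-tib42 against TAF-tib6 without replicate 1 of either (-0.27 and -0.26), and that against NSF without NSF replicate 1 or 3 or TAF-tib42 replicate 1 (-0.29 to -0.24).

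The dimmer Mmp14 probe placed TAF-tib48 with TAF-tib6 rather than with the other resistant sources. It averaged 0.80 ± 0.05 in TAF-el4, 0.99 ± 0.07 in TAF-tib42 and 1.27 ± 0.12 in TAF-tib48, against 1.30 ± 0.04 in TAF-tib6 and 0.97 ± 0.03 in NSF. TAF-tib48 was higher than NSF by 0.30 (adjusted p = 3.7e-04) on this probe, whereas the bright probe gave -0.03 (adjusted p = 0.866). The call was lost with the slide run as a block (0.27, adjusted p = 0.223) and with scaling between arrays (0.32, adjusted p = 0.0846). The 2 probes gave the same direction for TAF-el4 and TAF-tib42 against TAF-tib6. On the dimmer probe these differences were -0.50 (adjusted p = 1.8e-06) and -0.31 (adjusted p = 3.0e-04). Over 26 alternatives, the slide run block and scaling included, the first was -0.70 to -0.46 and kept its call in each. The second was -0.47 to -0.28.

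Mmp11, a stromelysin known from the stroma of breast tumours and activated inside the cell by furin, was highest in TAF-tib48. Its log2 ratios were 1.76, 1.42 and 1.82 in TAF-tib48, 0.99, 1.04 and 1.17 in TAF-tib42 and 0.69, 0.50 and 0.54 in TAF-el4. The sensitive sources had 0.99, 0.99 and 0.94 (TAF-tib6) and 0.66, 0.61 and 0.65 (NSF). Every TAF-tib48 array was above every array of the other sources. TAF-tib48 had 1.62 times the ratio of TAF-tib6 (log2 difference 0.69, SE 0.0783, adjusted p = 2.1e-06) and 2.04 times that of NSF (1.03, adjusted p = 9.1e-09).

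The resistant sources did not share a direction for Mmp11. TAF-el4 was below TAF-tib6 (-0.39, adjusted p = 0.00102) and TAF-tib42 above NSF (0.43, adjusted p = 4.4e-04). TAF-tib42 and TAF-tib6 were not told apart (adjusted p = 0.433), nor were TAF-el4 and NSF (adjusted p = 0.752), so the order ran TAF-tib48, then TAF-tib42 with TAF-tib6, then NSF with TAF-el4. With the slide run as a block both TAF-tib48 differences kept their call (0.65 against TAF-tib6 and 1.18 against NSF), while that of TAF-el4 against TAF-tib6 (-0.57, adjusted p = 0.0525) and that of TAF-tib42 against NSF (0.48, adjusted p = 0.0511) fell just short.

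Mmp3, a stromelysin that cuts proteoglycans and activates other proenzymes, was far below the reference RNA in all sources. Its log2 ratio averaged -2.66 ± 0.05 in TAF-el4, -2.56 ± 0.09 in TAF-tib42 and -3.21 ± 0.05 in TAF-tib48, against -2.86 ± 0.13 in TAF-tib6 and -2.34 ± 0.26 in NSF. TAF-tib48 was lowest, by -0.87 against NSF (adjusted p = 7.1e-07) and by -0.35 against TAF-tib6 (adjusted p = 0.00767). Scaling the log ratios between arrays turned the second to 0.15, and without TAF-tib6 replicate 3 it was -0.28 (adjusted p = 0.0502). The NSF arrays were the most spread, at -2.58, -2.07 and -2.37, and without NSF replicate 2 the difference of TAF-el4 from NSF (-0.32, adjusted p = 0.0197) was -0.18 (adjusted p = 0.134). It was also not called without TAF-el4 replicate 2 (-0.29) or with scaling (-0.37, adjusted p = 0.577). TAF-tib42 was instead higher than TAF-tib6 for Mmp3 (0.30, adjusted p = 0.0214), a call kept in 12 of 15 fits that left out 1 array. The sensitive sources differed too, TAF-tib6 being below NSF by -0.52 (adjusted p = 7.4e-04), which was not called with the slide run as a block.

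Mmp10, the second stromelysin of the cluster, and Mmp13, the main interstitial collagenase of the mouse, were called in 0 of 10 pairs of sources. Mmp10 averaged 0.11 in TAF-el4, 0.08 in TAF-tib42 and 0.11 in TAF-tib48, against 0.18 in TAF-tib6 and 0.14 in NSF. Mmp13 averaged -0.51, -0.50 and -0.51 in the same resistant sources, against -0.51 in TAF-tib6 and -0.41 in NSF. At these signals, close to the negative controls for Mmp13, a difference may not have been detectable, and a gene with no call is not shown to be equal between sources.

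Timp1, the inhibitor of most secreted MMPs, was highest in TAF-el4. On the brightest of its probes that did not saturate, the log2 ratios were 3.09, 3.14 and 3.18 in TAF-el4, 1.99, 1.85 and 1.87 in TAF-tib42 and 2.19, 2.15 and 2.01 in TAF-tib48. They were 1.88, 1.85 and 1.98 in TAF-tib6 and 2.25, 2.27 and 2.35 in NSF. The TAF-el4 arrays stood apart from all other arrays, and the other 4 source means lay within 1.90 to 2.29. TAF-el4 had 2.36 times the ratio of TAF-tib6 (log2 difference 1.24, SE 0.0553, adjusted p = 2.0e-11) and 1.80 times that of NSF (0.85, adjusted p = 2.8e-09). It also exceeded the other resistant sources, by 1.23 over TAF-tib42 and by 1.02 over TAF-tib48.

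The 3 Timp1 probes gave like values. Against TAF-tib6, TAF-el4 was at least 2.14-fold higher on the saturated probe (adjusted p = 3.9e-07) and 2.05-fold higher on the third (adjusted p = 1.1e-09). Against NSF it was at least 1.60-fold higher on the saturated probe and 1.65-fold higher on the third. The probes correlated at 0.951 to 0.988 over the 15 arrays, and they lie on chromosome X, at 19113490 to 19113549, 19111780 to 19112029 and 19111720 to 19111779 in the coordinates of the scanner files.

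The other resistant sources went the other way for Timp1 against NSF. On the second probe TAF-tib42 differed from NSF by -0.39 (adjusted p = 3.5e-05) and TAF-tib48 by -0.17 (adjusted p = 0.0271), and the second of these missed the threshold without NSF replicate 3 (-0.14, adjusted p = 0.107) or TAF-tib48 replicate 3 (-0.12, adjusted p = 0.138). TAF-tib6 also lay below NSF (-0.39, adjusted p = 7.9e-05), and TAF-tib42 was not told apart from TAF-tib6 (adjusted p = 0.982). With the slide run as a block the calls of TAF-tib48 (-0.16, adjusted p = 0.478) and TAF-tib6 (-0.34, adjusted p = 0.285) against NSF were lost, while TAF-el4 kept its calls against TAF-tib6 (1.17, adjusted p = 1.8e-05) and NSF (0.83, adjusted p = 1.0e-07). Scaling the log ratios between arrays left these differences at 0.89 (adjusted p = 0.0635) and 0.91 (adjusted p = 0.094), short of the threshold. It also ended the calls against NSF of TAF-tib42 (-0.20) and TAF-tib48 (-0.12) and turned that of TAF-tib6 (0.02). On the other Timp1 probes TAF-el4 was called after scaling against neither sensitive source, at 0.70 to 0.80.

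Timp2, which inhibits MMPs and also takes part in the activation of the Mmp2 proenzyme, divided the resistant sources. Its log2 ratios were 1.61, 1.53 and 1.55 in TAF-el4, 1.41, 1.38 and 1.48 in TAF-tib42 and 2.21, 2.24 and 2.37 in TAF-tib48, against 1.84, 1.92 and 1.90 in TAF-tib6 and 2.17, 2.13 and 2.09 in NSF. No array of 1 source overlapped with an array of another, and all 10 pairs were called. TAF-el4 differed by -0.33 from TAF-tib6 (SE 0.0473, adjusted p = 4.7e-05) and by -0.57 from NSF (adjusted p = 6.4e-08), and TAF-tib42 by -0.46 and -0.71. TAF-tib48 was instead higher than TAF-tib6, by 0.39 (adjusted p = 5.6e-06).

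The order of the Timp2 levels ran TAF-tib48, NSF, TAF-tib6, TAF-el4 and TAF-tib42. The smallest steps, of TAF-tib48 over NSF and of TAF-el4 over TAF-tib42, were lost under several settings. That of TAF-tib48 over NSF (0.14, adjusted p = 0.033) was -0.01 with median centring in place of loess and 0.10 with the slide run as a block (adjusted p = 0.656), and it was not called without NSF replicate 2 or 3 or TAF-tib48 replicate 3 (0.10 to 0.14). That of TAF-el4 over TAF-tib42 (0.14, adjusted p = 0.043) was kept in 9 of 15 fits that left out 1 array. It was lost without any TAF-el4 array, TAF-tib42 replicate 1 or 2, or NSF replicate 2 (0.11 to 0.16), and with the slide run as a block (0.13, adjusted p = 0.256).

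Larger Timp2 differences also lost their calls. Those of TAF-el4 against TAF-tib6 (-0.25, adjusted p = 0.187) and of TAF-tib6 against NSF (-0.32, adjusted p = 0.241) were lost with the slide run as a block. Scaling between arrays left the differences of TAF-el4 and TAF-tib42 from NSF at -0.49 (adjusted p = 0.137) and -0.55 (adjusted p = 0.0639), and that of TAF-tib48 from TAF-tib6 at 0.05 (adjusted p = 0.87). It kept the calls of TAF-el4 and TAF-tib42 against TAF-tib6.

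Timp3, the inhibitor that stays bound to the matrix, also blocks ADAM proteases and hinders VEGF from binding its receptor Kdr. It was highest in TAF-tib48 and lowest in TAF-tib6. Its log2 ratios were 2.06, 2.02 and 2.0 in TAF-el4, 1.63, 1.44 and 1.74 in TAF-tib42 and 2.63, 2.48 and 2.36 in TAF-tib48. They were 1.18, 1.33 and 1.32 in TAF-tib6 and 1.99, 1.77 and 1.92 in NSF. All 9 resistant arrays lay above the 3 TAF-tib6 arrays, but the NSF arrays lay among the resistant ones.

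TAF-tib48 had 2.32 times the Timp3 ratio of TAF-tib6 (log2 difference 1.21, SE 0.0758, adjusted p = 8.3e-10) and 1.51 times that of NSF (0.59, adjusted p = 8.7e-06). TAF-el4 was above TAF-tib6 (0.75, adjusted p = 7.1e-07) and was not told apart from NSF (0.13, adjusted p = 0.335). TAF-tib42 was above TAF-tib6 (0.33, adjusted p = 0.00307) and below NSF (-0.29, adjusted p = 0.00861). The call against NSF was lost without NSF replicate 1 (-0.24, adjusted p = 0.0515) or TAF-tib42 replicate 2 (-0.21, adjusted p = 0.0612). With the slide run as a block TAF-tib48 kept both calls (1.15 and 0.77), while those of TAF-el4 against TAF-tib6 (0.52, adjusted p = 0.0573), TAF-tib42 against TAF-tib6 (0.12, adjusted p = 0.646) and TAF-tib42 against NSF (-0.25, adjusted p = 0.308) were lost. Scaling between arrays kept the call of TAF-tib48 against TAF-tib6 alone, and left TAF-tib48 against NSF at 0.61 (adjusted p = 0.0542), TAF-el4 against TAF-tib6 at 0.51 (adjusted p = 0.0934), and TAF-tib42 at 0.19 against TAF-tib6 and -0.14 against NSF.

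**Figure D3:**
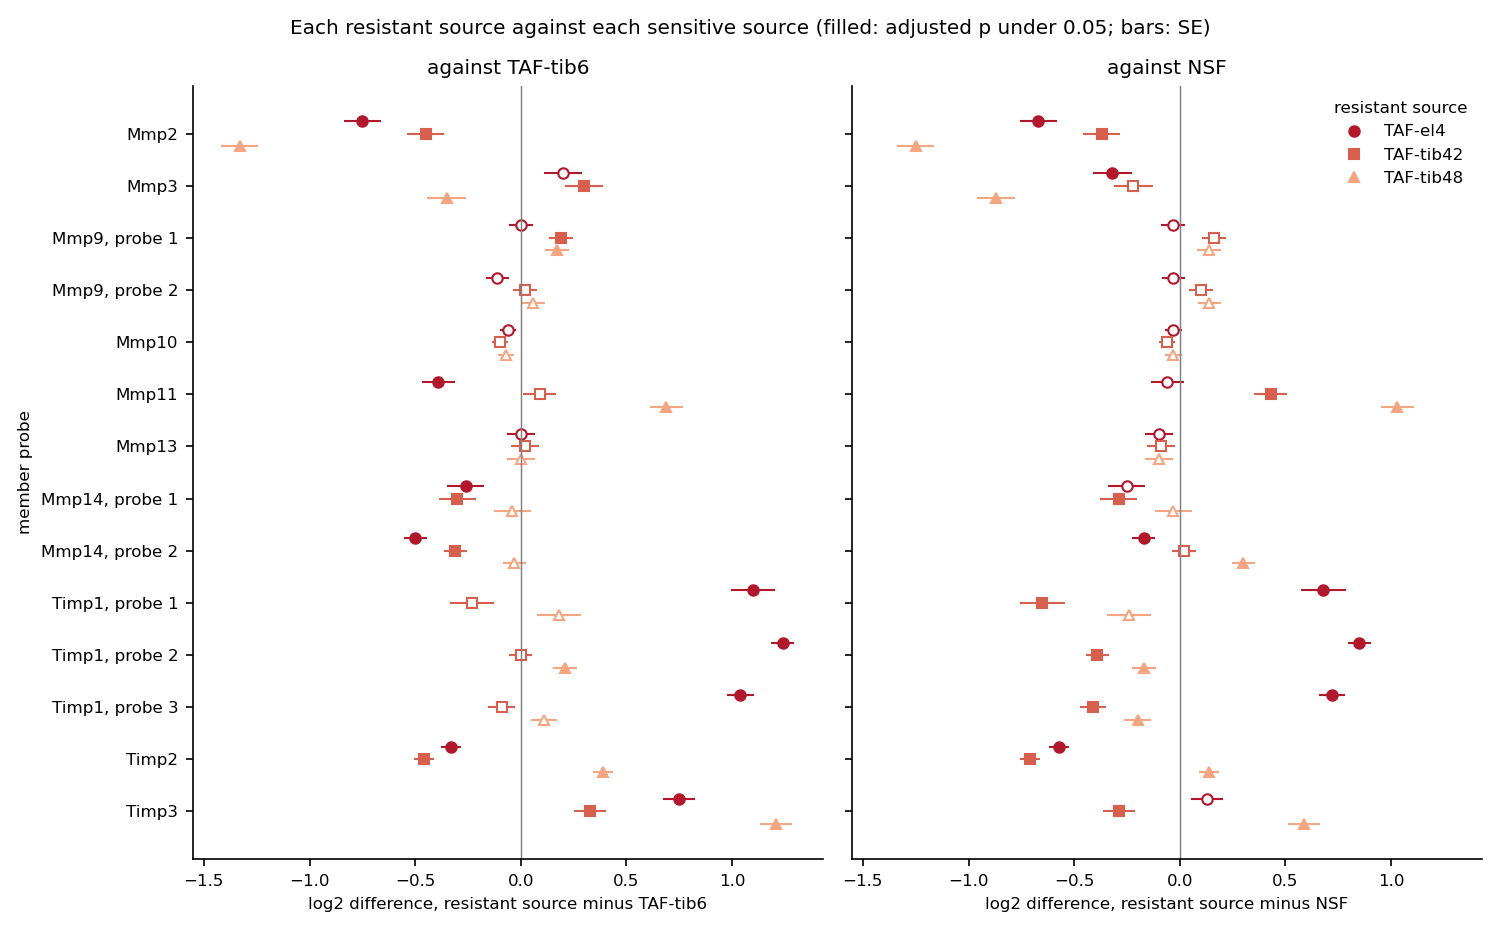
Log2 difference of each resistant source minus TAF-tib6 (left) and minus NSF (right) for the 14 member probes, with SE bars. Filled symbols are called at an adjusted p under 0.05. Mmp2 is left of 0 for all 3 resistant sources in both panels, while the 3 sources lie on different sides of 0 for Mmp11, Timp1 and Timp2.

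Counted over the 14 member probes, TAF-el4 minus TAF-tib6 gave 4 higher and 5 lower calls, where 20.6% of all probes were called, 11.6% higher and 8.95% lower. TAF-tib42 minus TAF-tib6 gave 3 higher and 4 lower (24.8% of all probes, 12.2% higher and 12.6% lower). TAF-tib48 minus TAF-tib6 gave 5 higher and 2 lower (24.8%, 12.3% higher and 12.5% lower). The direction thus differed between resistant sources. Against NSF, TAF-el4 gave 3 higher and 4 lower calls, where 17.4% of all probes were called, 8.88% higher and 8.54% lower. TAF-tib42 minus NSF gave 1 higher and 7 lower (24.2%, 11.2% higher and 13% lower), the most one-sided of the 6 pairs. The 3 probes of Timp1 made up the 3 higher calls of TAF-el4 and were among the 7 lower calls of TAF-tib42 against NSF. TAF-tib48 minus NSF gave 4 higher and 4 lower (26.5%, 12.5% higher and 14.1% lower). The shares of member probes called were 64.3%, 50% and 50% against TAF-tib6 and 50%, 57.1% and 57.1% against NSF, above those of all probes. Those of bright probes in general were also above them. Among probes brighter than the median probe by the mean intensity of both dyes, 31.4%, 34.8% and 36.1% were called against TAF-tib6 and 28.4%, 32.4% and 34.8% against NSF. The members' shares were above these too, with each Timp1 probe counted.

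The sensitive sources differed from each other as well. TAF-tib6 minus NSF gave 2 higher and 6 lower member calls, where 11% of all probes (4.41% higher and 6.63% lower) and 15.8% of the brighter ones were called. None of the 8 kept its call with the slide run as a block, in which these sources share no run. Among resistant sources, 9 member probes were called for TAF-el4 minus TAF-tib42 (23.1% of all probes), 11 for TAF-el4 minus TAF-tib48 (23.6%) and 9 for TAF-tib42 minus TAF-tib48 (14.2%), with 33.9%, 34.1% and 21.8% among the brighter probes. A pair of resistant sources thus held 9 to 11 called member probes, against 7 to 9 for a resistant and a sensitive source. These counts take the 3 probes of Timp1 as 3. With 1 probe per gene, 6 to 7 members were called in a pair of resistant sources, and 4 to 6 in a resistant against a sensitive source. Over all probes of that setting, 4471 to 7463 and 5424 to 8190 were called in these pairs.

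**Figure D4:**
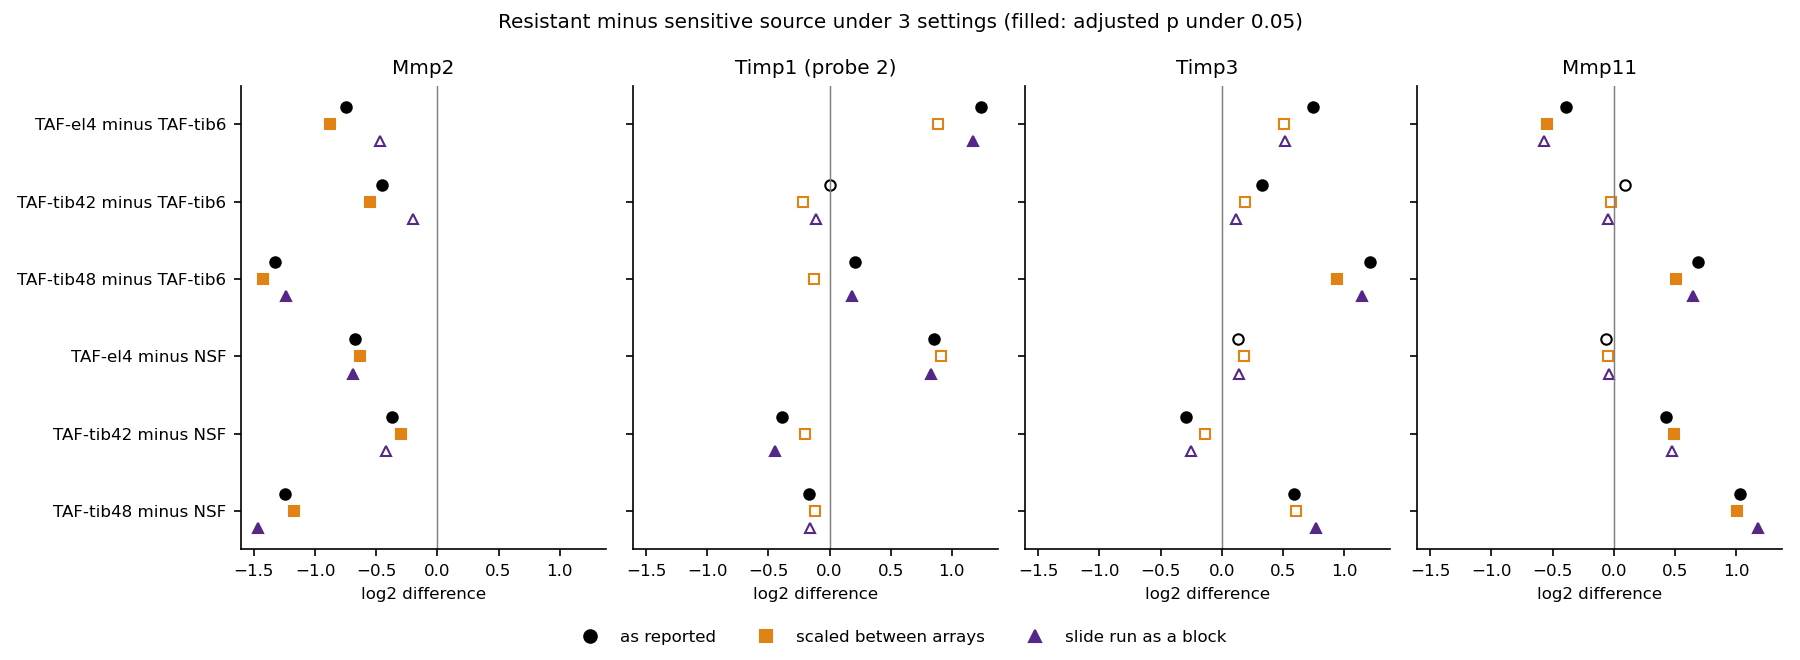
Log2 differences of the 6 pairs for Mmp2, Timp1 (probe 2), Timp3 and Mmp11 as reported, with log ratios scaled between arrays and with the slide run as a block. Filled symbols are called at an adjusted p under 0.05. Mmp2 lies left of 0 in all 18 cases, and Timp1 in TAF-el4 lies right of 0 in all of its cases but is not called after scaling.

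Of 17 further genes of the MMP and TIMP families, 14 were on the array and few moved. Mmp23, a membrane protease, was the most changed, with log2 differences of -0.26 in TAF-el4, -0.62 in TAF-tib42 and -0.50 in TAF-tib48 against TAF-tib6, and of -0.56 in TAF-tib42 and -0.44 in TAF-tib48 against NSF. Under the slide run block the first (-0.28, adjusted p = 0.39) and the last (-0.38, adjusted p = 0.197) were lost, and with scaling both against NSF (-0.40 and -0.37). The first was also lost without TAF-el4 replicate 3 (-0.23) or TAF-tib6 replicate 1 (-0.24). Its ratios averaged 1.91 ± 0.06 in TAF-el4, 1.55 ± 0.05 in TAF-tib42 and 1.67 ± 0.20 in TAF-tib48, against 2.17 ± 0.03 in TAF-tib6 and 2.12 ± 0.10 in NSF. Over the 6 pairs, 3 calls were higher and 7 were lower, fewer per list gene than over all probes (17.4% to 26.5% called in a pair), and TAF-el4 minus NSF had 0 calls. The median difference of the list was between -0.04 and 0.02, where that of all probes was between -0.01 and 0.01.

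Among 16 genes of MMP activation at the cell surface, Plaur was higher in TAF-el4 and Reck was lower in the resistant sources. Plaur, the receptor of urokinase, averaged 0.62 ± 0.08 in TAF-el4, -0.16 ± 0.08 in TAF-tib42 and 0.01 ± 0.08 in TAF-tib48, against -0.23 ± 0.09 in TAF-tib6 and -0.06 ± 0.03 in NSF. TAF-el4 was higher than TAF-tib6 by 0.85 (adjusted p = 3.9e-09), and it was also the source with the highest Timp1.

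Reck, a membrane-anchored inhibitor of several MMPs, had 0.52 ± 0.02 in TAF-el4, 0.64 ± 0.02 in TAF-tib42 and 0.47 ± 0.16 in TAF-tib48, against 1.19 ± 0.05 in TAF-tib6 and 1.35 ± 0.11 in NSF. Against NSF it differed by -0.82, -0.70 and -0.88 in these resistant sources (adjusted p = 3.7e-08, 1.7e-07 and 7.0e-09), and by -0.55 in TAF-tib42 and -0.73 in TAF-tib48 against TAF-tib6. List members called higher and lower were 5 and 4 in TAF-el4, 0 and 6 in TAF-tib42 and 3 and 6 in TAF-tib48 against TAF-tib6, and 5 and 4, 1 and 8, and 3 and 7 against NSF. Each pair had 8.88% to 12.5% of all probes called higher and 8.54% to 14.1% lower, and more of the bright probes (28.4% to 36.1% called). The list's median difference was between -0.15 and 0.02.

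The 18 ADAM and ADAMTS proteases, relatives of the MMPs of which several are held in check by Timp3, had more lower than higher calls in each of the 6 pairs, while over all probes higher and lower calls were 8.88% to 12.5% and 8.54% to 14.1%. Against TAF-tib6, 1 rose and 6 fell in TAF-el4, 2 and 6 in TAF-tib42 and 2 and 7 in TAF-tib48. Against NSF, 1 rose and 7 fell in TAF-el4, 2 and 6 in TAF-tib42 and 2 and 10 in TAF-tib48. Adamts1, which cuts proteoglycans and is known to restrain vessel growth, averaged 1.20 ± 0.05 in TAF-el4, 1.97 ± 0.07 in TAF-tib42 and 1.56 ± 0.27 in TAF-tib48, against 2.50 ± 0.04 in TAF-tib6 and 2.46 ± 0.09 in NSF. It fell by 1.30, 0.53 and 0.94 in these resistant sources against TAF-tib6, the value of TAF-tib42 being -0.15 and not called with the slide run as a block. Adamts15 stood out in NSF, at 1.33 ± 0.08, against which the resistant sources differed by -1.36, -1.49 and -1.54, but TAF-tib6 was at 0.16 ± 0.13.

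Cathepsins and cystatins, the lysosomal proteases and their inhibitors, showed 0 higher and 6 lower of 13 in TAF-el4, 1 and 8 in TAF-tib42 and 1 and 7 in TAF-tib48 against TAF-tib6. Against NSF the counts were 1 and 5, 2 and 7, and 1 and 7. Of all probes 8.88% to 12.5% were called higher and 8.54% to 14.1% lower in these pairs, and 28.4% to 36.1% of the bright ones were called in either direction. The list's median lay between -0.33 and -0.20 in the 6 pairs. Ctsl was lower in TAF-el4 (-0.65, adjusted p = 1.4e-04) and TAF-tib42 (-0.80, adjusted p = 1.2e-05) than in TAF-tib6, and Ctsb was lower in TAF-tib42 (-0.71) and TAF-tib48 (-0.67) than in NSF. Cst6, a cystatin, ran the other way in TAF-tib48, by 0.79 over TAF-tib6 (adjusted p = 1.2e-08) and by 0.74 over NSF.

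Of 24 transcription factors and inducers of MMP genes, 5 rose and 5 fell in TAF-el4, 5 and 6 in TAF-tib42 and 3 and 7 in TAF-tib48 against TAF-tib6. Against NSF the counts were 3 and 8, 0 and 9, and 2 and 7. Between 9 and 11 of the 24 were thus called in a pair, where 17.4% to 26.5% of all probes and 28.4% to 36.1% of the bright ones were. The list's median was between -0.05 and 0. AP-1 is built from Fos and Jun proteins, and its Fos members were unlike between sources. Fos averaged -1.55 ± 0.27 in TAF-el4, -3.02 ± 0.10 in TAF-tib42 and -3.27 ± 0.07 in TAF-tib48, against -2.06 ± 0.22 in TAF-tib6 and -0.83 ± 0.17 in NSF. Fosl1 was higher in TAF-el4, by 0.91 over TAF-tib6 (adjusted p = 3.5e-08) and by 1.05 over NSF (adjusted p = 5.8e-09).

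Il6, an inflammatory cytokine, had the widest range of the named list genes. It averaged 2.80 ± 0.17 in TAF-el4, 4.24 ± 0.06 in TAF-tib42 and 1.58 ± 0.25 in TAF-tib48, against 3.72 ± 0.06 in TAF-tib6 and 5.15 ± 0.13 in NSF. TAF-tib48 was lower by -2.14 against TAF-tib6 (adjusted p = 1.5e-11) and by -3.57 against NSF (adjusted p = 1.1e-14). Il1r1, the receptor of the MMP inducer interleukin-1, was lower in TAF-tib42 than in TAF-tib6 by -0.98 (adjusted p = 7.8e-08) and than in NSF by -1.28 (adjusted p = 2.1e-09). In TAF-tib48 it was lower than in TAF-tib6 by -1.27 (adjusted p = 2.7e-09). The Il1r1 means were 2.42 ± 0.04 in TAF-el4, 1.60 ± 0.02 in TAF-tib42 and 1.31 ± 0.27 in TAF-tib48. They were 2.59 ± 0.04 in TAF-tib6 and 2.88 ± 0.09 in NSF.

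For the 4 members whose brightest probe spanned over 1 log2 unit between source means, the 3 other genes with the most alike log2 ratios over the 15 arrays were found by Pearson correlation. The 3 arrays of a source share that source, so the correlations describe these arrays and carry no test. Mmp2 was most like Lgi2 (0.975), Smpdl3a (0.975) and Slc39a14 (0.970), each of which was lowest in TAF-tib48. Timp1 was most like Wdr1 (0.958), Mmd (0.956) and Epha2 (0.954), each highest in TAF-el4. Mmp11 was most like Usp5 (0.950), Trmt10b (0.947) and Eipr1 (0.943), whose own source means spanned only 0.19, 0.41 and 0.34. Timp3 was most like Cox4i2 (0.942), Nr2f2 (0.936) and Tagln2 (0.936), each highest in TAF-tib48.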

How the data were processed

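RNA of 5 fibroblast sources was measured on 15 Agilent 2-colour arrays, 3 per source, against a reference RNA without dye swap. Per the file headers, the deposited scanner output has for each dye the intensity of a spot (mean signal, with a median local background) and a log10 ratio of Cy5 over Cy3 that the software background-subtracted and LOWESS-normalised. Agilent Feature Extraction 8.5.1.1 is named in these headers and in the submitters' processing notes, and 9.5 in a protocol label. The authors' deposited table holds log2 ratios equal to those of the scanner after a change of base (correlation and slope 1), with column medians of 0.0338 to 0.0511, so its scale and direction are known and it had not been centred on 0.

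Intensities were background-corrected (normexp, offset 50) and loess-normalised within arrays with limma 3.58.1 in R 4.3.3. Control spots (weight 0) and outlier-flagged spots were dropped, saturated ones retained, and the spots of a probe averaged. Probes well above background in Cy5 on all 3 arrays of some source were tested. Background was 52 to 56 units; precision is limited by there being 3 arrays per source. Of 41174 probes, 22072 were named by accession in the RefSeq table, 2100 by description, and 17002 kept the file's name; all 14 member probes matched by accession. A limma model (lmFit, eBayes) of 15 arrays gave the contrasts between sources, and a second, on 5 source means, that of resistant with sensitive sources, all two-sided. The steps were tested on simulated data.

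The members, the 5 gene lists and the marker lists were chosen with earlier results of these data known. All member probes are named, with the 2 largest called differences of each list and comparison; for list genes and likeness the brightest probe stood for the gene. Of these, not all are printed, and 1 list gene is not reported here. Alternatives covered background correction, normalisation, scaling, the scanner's and the authors' ratios, Cy5 alone, filters, 1 probe per gene, replicate number or slide run as a block, source as a random block, and leaving out each array.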

Additional observations from a re-analysis of the deposited data

How the results depend on the processing

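Counts of member probes called are given here where a setting moved them by over 1.5 times. Scaling the log ratios between arrays left 4 calls for TAF-el4 and 4 for TAF-tib48 against TAF-tib6, 1, 2 and 3 for TAF-el4, TAF-tib42 and TAF-tib48 against NSF, 3 for TAF-tib6 minus NSF, and 4, 5 and 4 for TAF-el4 minus TAF-tib42, TAF-el4 minus TAF-tib48 and TAF-tib42 minus TAF-tib48. In the same order, scaling called 6666 and 8549 of all probes against TAF-tib6 and 3498, 5348 and 5193 against NSF. It called 2907 for TAF-tib6 minus NSF and 5690, 4898 and 2903 in the pairs of resistant sources. The slide run as a block left 4 and 2 for TAF-el4 and TAF-tib42 against TAF-tib6, 4 and 5 for TAF-tib42 and TAF-tib48 against NSF, 0 for TAF-tib6 minus NSF and 5 for TAF-el4 minus TAF-tib42. Over all probes that block called 508 in place of 4249 for TAF-tib6 minus NSF and 2096 in place of 7920 for TAF-el4 minus TAF-tib6. It called 3755 for TAF-tib42 minus TAF-tib6, 2983 and 2480 for TAF-tib42 and TAF-tib48 minus NSF, and 5379 for TAF-el4 minus TAF-tib42. Cy5 alone left 5 for TAF-tib48 minus NSF, and called 8043 of all probes. With 1 probe per gene, which tests 10 members, 4 were called for TAF-el4 minus NSF, 5 for TAF-tib48 minus NSF, 5 for TAF-tib6 minus NSF and 7 for TAF-el4 minus TAF-tib48. In the same order, 5424, 8190, 3554 and 7463 of all probes of that setting were called. Leaving out 1 array gave 5 to 9 calls for TAF-tib48 minus NSF, with 5 without NSF replicate 3 or TAF-tib48 replicate 3, and 4 to 8 for TAF-tib42 minus TAF-tib6, with 4 without TAF-tib42 replicate 1.

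Between resistant and sensitive sources, 0 member probes became 1 with 15 arrays and the source as a random block (Mmp2, -0.80, adjusted p = 0.00989), and 9 with the replicate block, which takes arrays as units. Over all probes the random block called 1826 and the replicate block 10774, where the reported fit called 1. The replicate numbers do not pair the arrays: deviations of same-numbered arrays correlated at -0.187 to 0.16, 2 of 30 pairs were over 0.1, and 2 of 15 arrays correlated best with their own number. In pairs of sources the replicate block gave 6 to 10 calls, within 1.5 times of the reported counts.

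Directions turned as follows. Median centring gave -0.01 for Timp2 in TAF-tib48 minus NSF. Scaling gave 0.15 for Mmp3 and -0.13 for Timp1 (A_51_P512379) in TAF-tib48 minus TAF-tib6, and 0.02, 0.06 and 0.10 for the Timp1 probes and 0.14 for Timp2 in TAF-tib6 minus NSF. Cy5 alone gave 0.08 and 0.03 for 2 Timp1 probes in TAF-tib48 minus NSF, -0.14 for Mmp17 in TAF-el4 minus TAF-tib6 and 0.12 for Mmp21 in TAF-tib48 minus TAF-tib6. The slide run as a block gave 0.08 and 0.03 for Mmp14 (A_51_P216303) in TAF-el4 and TAF-tib42 minus TAF-tib6, 0.02 for Mmp9 in TAF-el4 minus TAF-tib48 (0.02 within the second run too), -0.04 for Mmp17 in TAF-el4 minus TAF-tib6 and -0.01 for Mmp8 in TAF-tib42 minus NSF. The cause was not tested. Of the other values, Mmp2 kept its direction in the 6 pairs under every alternative run, and lost calls with the slide run block alone. Signal limits Mmp13 and Mmp3.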
